A study of Arabidopsis thaliana with 24 samples.

Results

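A set of 71 array features was described whose steady-state mRNA rose with sucrose in seedlings kept in the light and was nearly level with sucrose in seedlings kept in the dark. The members were chosen in total RNA from 30386 gene features. The mean of light sucrose had to be at least 1 log2 unit (2-fold) above light control, the means of dark sucrose and dark control had to lie within 0.3 log2 units of each other, and the mean of light sucrose had to reach 6. The 71 features stand for 72 loci, because 1 feature covers the pair AT5G01880 and AT5G01881. Of the 71, 66 are protein-coding, 4 are small nucleolar RNA (snoRNA) genes and 1 is a microRNA gene, so "mRNA" does not hold for 5 of them. Every total RNA value below describes what the rule selected and was not tested.

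The data came from whole Arabidopsis thaliana seedlings of the wild type Col-0, grown in liquid culture in constant light (10 days old according to the methods, 7 days according to the sample labels). Cultures received 150 mM sucrose or, as the control for osmotic strength, 150 mM sorbitol for 6 h, and flasks were left in the light or covered. The 4 treatments are called light control and dark control (sorbitol) and light sucrose and dark sucrose. Each had 3 cultures, numbered 7, 8 and 9, and each culture gave 1 array of total RNA and 1 array of RNA from small polysomes, 24 arrays in all. Each array measured RNA of many seedlings, all organs together. By treatment means in total and polysomal RNA, 6 of 7 leaf marker genes lay above every array median (the other, CAB2, was as low as 2.45), and 2 of 7 root marker genes did (SHV2, and PYK10 with up to 12.4). In such material fewer cells of a type and less RNA per cell cannot be told apart.

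Sucrose is the sugar that leaves export to the rest of the plant, and it acts both as fuel and as a signal. Many sucrose-responsive genes are known for growth, storage and pigment synthesis, and light acts on plants through photoreceptors as well as through the sugar made by photosynthesis. An mRNA found in polysomes carries several ribosomes, so polysomal RNA reports on the messages being translated. The polysomal arrays took no part in choosing the members, and tests were therefore read in polysomal RNA alone. They are not independent cultures: total and polysomal RNA came from 1 extract, and the deviations of both from their group means were correlated (r across genes, 0.211 to 0.598 over the 12 cultures).

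Few of the features that rose in light at the chosen size had a flat dark pair. In total RNA 1183 features rose by at least 1 log2 unit with sucrose in light, and 1108 of these also reached the level of 6. Among the 1108, 1022 were higher with sucrose in darkness by more than 0.3, 15 were lower by more than 0.3, and 71 lay between. The limits cut through a continuum. Just inside the light limit were AT4G02630 and AT4G21880, both with a rise of 1.01, and just outside were AT1G07840 (0.996) and AT1G03820 (0.992). AT1G48460 (0.29) and AT5G58595 (-0.29) were just inside the dark limit, and AT3G58193 (0.301) and ENODL19 (0.308) just outside. At the level limit, AT2G39390 (6.03) and AT5G66800 (6.10) were in, and AT3G26960 (5.95) and AT2G38730 (5.88) were out.

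In total RNA the light rise of the 71 members had a median of 1.18 (1.01 to 2.70) and the dark difference a median of 0.12. The members were of middling level without sucrose in light: their median stood at the 55.1th to 59.1th percentile of all features in the 9 other total RNA arrays, and at the 73.5th to 78.2th percentile in the 3 light sucrose arrays.

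**Figure D1:**
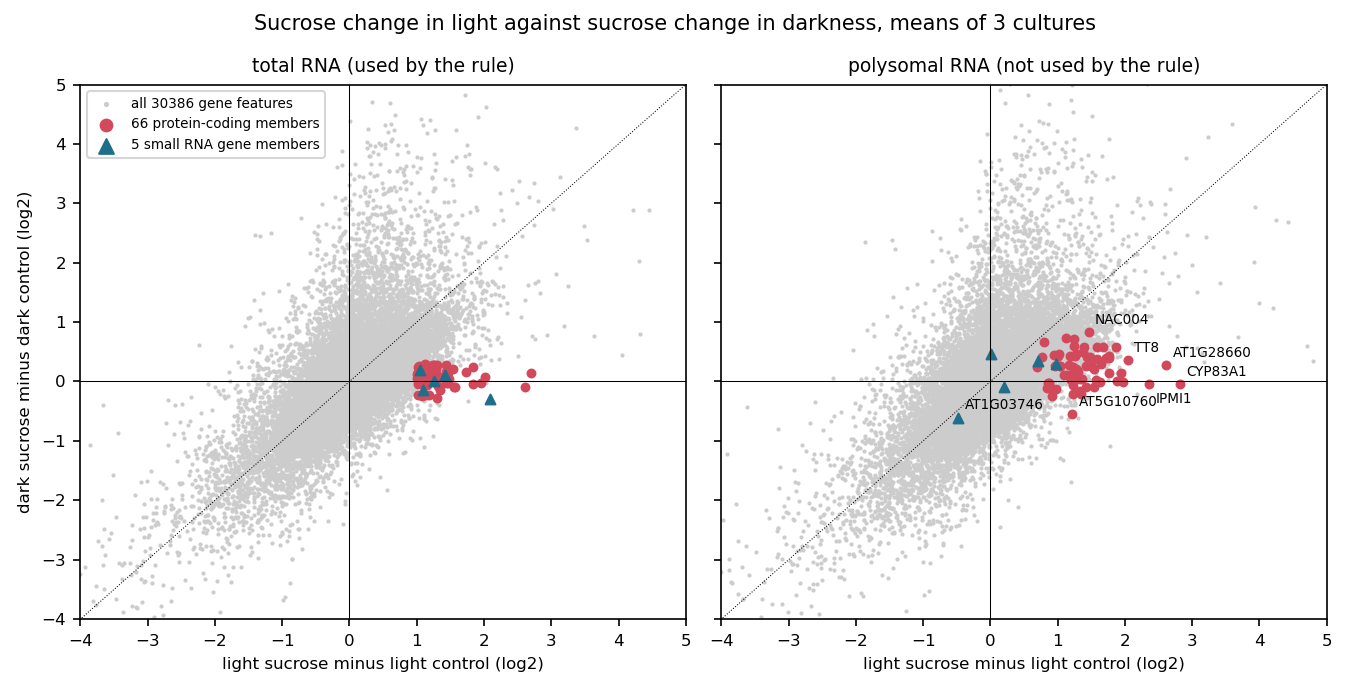
Each point is a gene feature. The horizontal axis is the change with sucrose in light and the vertical axis the change with sucrose in darkness (both log2, means of 3 cultures), for total RNA on the left and polysomal RNA on the right; the few features beyond the axes are not drawn. The members form a box in total RNA because the rule cut it out. In polysomal RNA the 66 protein-coding members stayed to the right, between 0.69 and 2.82 in light, while the 5 small RNA gene members ranged from -0.48 to 0.98.

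In polysomal RNA 54 of the 71 members rose with sucrose in light (limma, adjusted p under 0.05 and more than 2-fold), where 4.79% of all features did, and none fell (4.34%). The median change of the members was 1.27 (quartiles 1.02 and 1.56), against 0.01 for all features, and 70 of 71 changes were above 0. The share of all features above 0 was not counted. The 3 polysomal light sucrose arrays lay above the 3 light control arrays for 63 members (23.7% of all features), and above all 9 other polysomal arrays for 54 (9.13%). The 8 whose arrays overlapped between light sucrose and light control were AT1G03746, AT1G41880, AT5G10760, AT5G58595, BAT5, IPMI2, MIR157c and MYB29.

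In darkness 0 of 71 members rose with sucrose in polysomal RNA by the same criteria (5.48% of all features) and 0 fell (5.47%). Without the fold limit 10 members had an adjusted p under 0.05 with limma, and 17 had an unadjusted p under 0.05. The share of all features was not counted at either of these limits, so they are not set against a background. All 10 were higher with sucrose, by 0.40 to 0.84. The median dark change was 0.24 in polysomal RNA, against 0.02 for all features, and 52 of 71 members were above 0. It passed the rule's own limit of 0.3 in 26 members and went below -0.3 in 2. No share of all features was counted beside these signs and limits. The median dark change was thus higher in the RNA that the rule had not used than in total RNA, a difference that was not tested. Without replicate 9 the count of members raised in darkness was 2, and without replicate 7 or 8 it was 0.

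The difference itself, the sucrose change in light minus that in darkness, was larger in light for 34 of 71 members in polysomal RNA (limma, adjusted p under 0.05), where 6.33% of all features passed, and larger in darkness for 0 (5.21%). At an unadjusted p under 0.05 it was 56, without a share of all features counted beside it. The median difference was 1.08, against 0.03 for all features, and it was above 0 in all 3 same-numbered comparisons for 62 members. The share of all features with such signs was not counted. The number of calls depended on which culture was left out. Without replicate 7 the count was 3, without replicate 8 it was 4, and without replicate 9 it was 51, while the members' median difference was 1.12, 0.99 and 1.12. The share of all features that passed moved in the same directions, to 0.441%, 0.434% and 8.23%. The count of members raised in light was steadier, at 44, 45 and 56.

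Replicate 9 gave the smaller light rises. The median light change of the members in polysomal RNA was 1.30 in replicate 7, 1.48 in replicate 8 and 1.15 in replicate 9, and the median dark change 0.30, 0.32 and 0.08. In total RNA 61, 63 and 35 of the 71 members rose by at least 1 log2 unit in replicates 7, 8 and 9. Values of 1 culture that had no part in the choice were obtained by applying the rule without that replicate number and reading the number left out. Leaving out replicate 7, the rule chose 85 features, whose median change in the left-out culture was 1.15 in light and 0.19 in darkness. Leaving out replicate 8, it chose 78, with medians of 1.34 and 0.25, and leaving out replicate 9, it chose 115, with 0.77 and 0.15. The light change exceeded the dark change in the left-out culture in 81 of 85, 76 of 78 and 109 of 115 features. It reached the limit of 1 in 49, 57 and 34 of them, and the dark difference stayed within 0.3 in 39, 37 and 53. The share of all features was not counted for any of these. For all features the median light-minus-dark difference in total RNA was 0.05, 0.05 and 0.06 in replicates 7, 8 and 9. In the culture left out, the light change of the chosen features was thus mostly above the dark change. Membership at these limits often did not carry over.

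**Figure D2:**
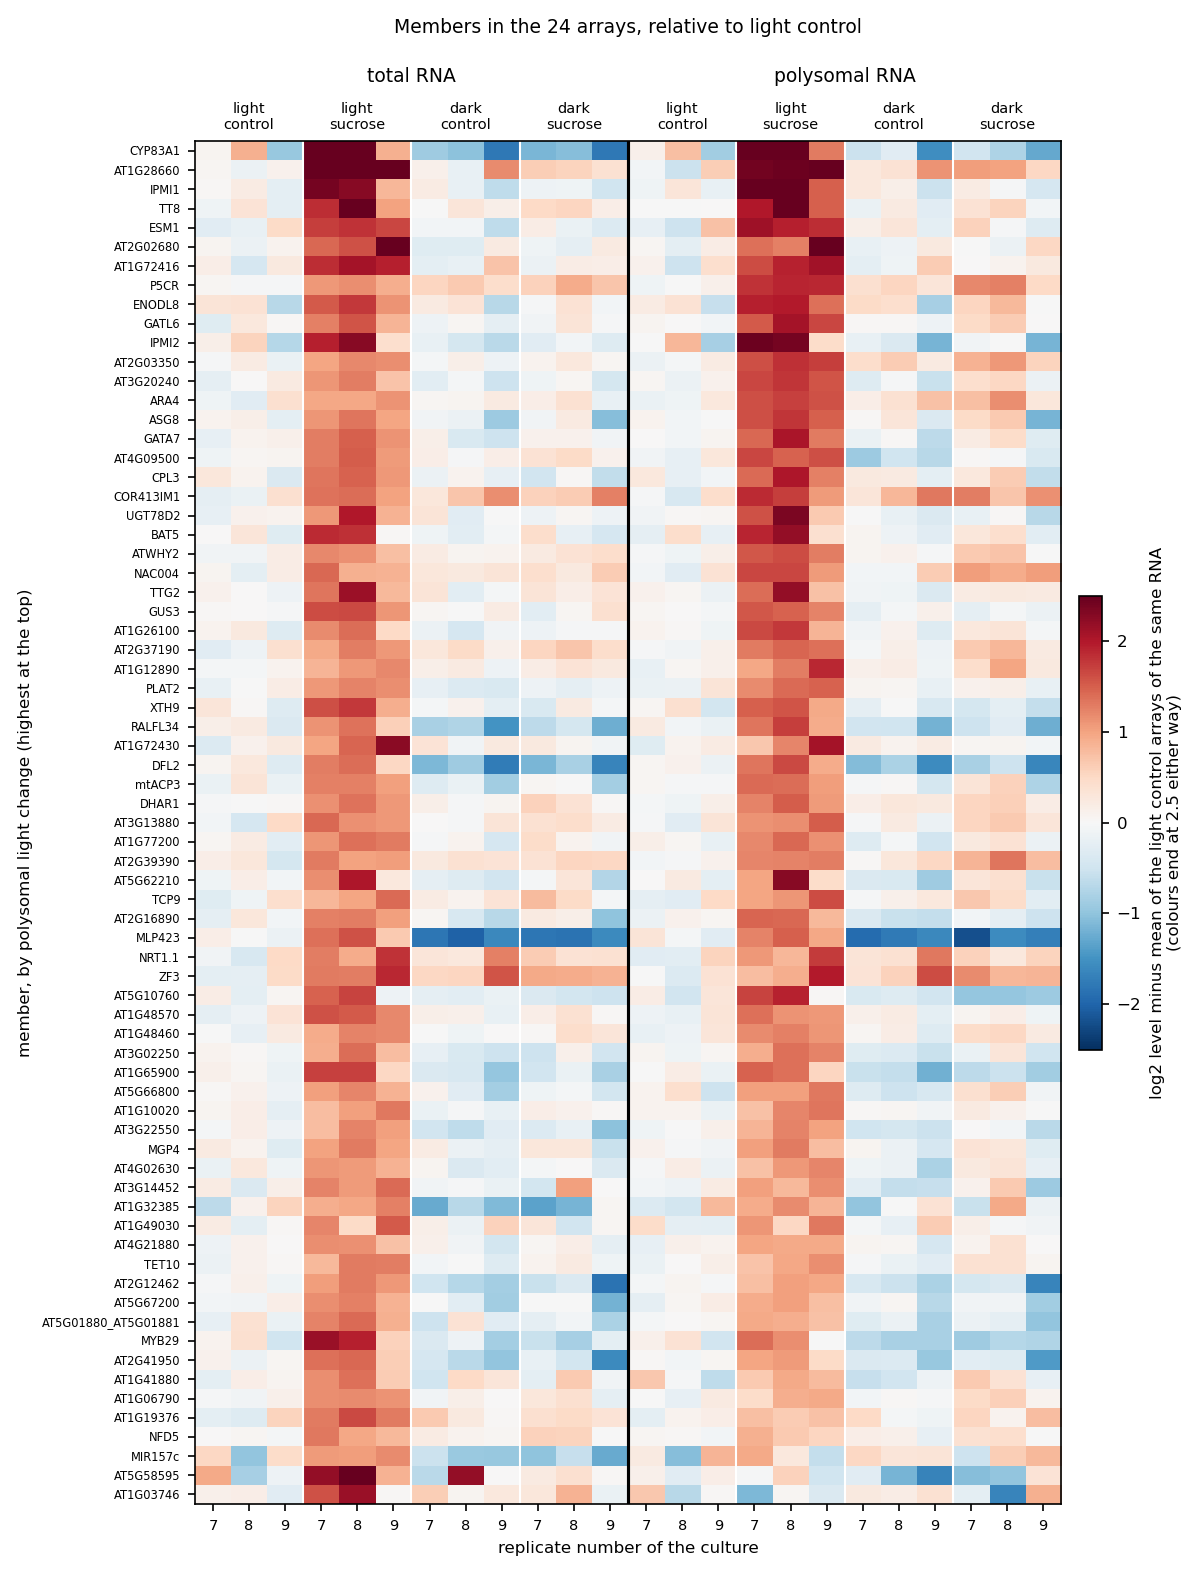
Level of each of the 71 members (rows) in each of the 24 arrays (columns, by RNA, treatment and replicate number), as the log2 difference from the mean of the light control arrays of the same RNA. Red marks higher and blue lower values. The light sucrose columns are red in nearly every row for both kinds of RNA; the last 3 rows, MIR157c and the snoRNA genes AT5G58595 and AT1G03746, are red there in most total RNA arrays and mixed in colour in polysomal RNA.

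Of 27 gene lists, 5 held members, 12 of the 71 in all, and 59 members were in no list. The list with most members, after which the others held 1 to 3, was glucosinolate synthesis. Glucosinolates are the sulfur-rich defence compounds of the cabbage family. One branch starts from methionine, whose side chain is lengthened in the plastid, and another starts from tryptophan. Of 33 features in the glucosinolate list, 5 were members, and all 5 belong to the methionine branch. CYP83A1 is the cytochrome P450 that oxidises the aldoximes of that branch, IPMI1 and IPMI2 are small subunits of the isopropylmalate isomerase used in chain lengthening, BAT5 is a plastid transporter for the chain-lengthened keto acids, and MYB29 is a transcription factor of the branch. ESM1, a protein that alters which products form when glucosinolates are broken down, was also a member and stood outside the list.

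CYP83A1 (AT4G13770; chromosome 4, minus strand, 7990485 to 7992311 in the array's own coordinates, whose genome build is not stated) had the largest polysomal rise of all members. Its polysomal levels were 7.31, 7.95 and 6.32 in light control (replicates 7, 8 and 9 throughout) and 10.75, 10.79 and 8.50 in light sucrose. In dark control they were 6.65, 6.91 and 5.63, and in dark sucrose 6.71, 6.43 and 5.91. No light sucrose array overlapped with any other treatment, and replicate 9 was the lowest of the 3 in every treatment. The light rise was 2.82 ± 0.63 (SD, n = 3; 7.07-fold, limma adjusted p = 0.00231), and the dark change was -0.05. The light-minus-dark difference was 2.87 ± 0.84 and missed the threshold (adjusted p = 0.0542).

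IPMI1 (AT3G58990; chromosome 3, minus strand, 21797058 to 21798303) had polysomal levels of 6.46, 6.87 and 6.39 in light control and 9.43, 9.32 and 8.06 in light sucrose. The dark arrays gave 6.84, 6.73 and 6.04 without and 6.77, 6.55 and 6.15 with sucrose. The 9 arrays other than light sucrose thus spanned less than 1 log2 unit, and light sucrose stood clear of them. The rise in light was 2.36 ± 0.65 (SD, n = 3; 5.14-fold, adjusted p = 4.4e-05) and the light-minus-dark difference 2.41 ± 0.76 (adjusted p = 0.00507). ESM1 (AT3G14210) went from 8.76, 8.45 and 9.70 to 11.10, 10.91 and 10.81 in light, and from 9.12, 9.28 and 8.72 to 9.55, 8.94 and 8.64 in darkness. Its light arrays did not overlap, and its dark arrays did. The light rise was 1.97 ± 0.75 (3.92-fold, adjusted p = 1.45e-05) and the difference between light and dark 1.97 ± 0.80 (adjusted p = 0.00284).

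The other 3 members of the branch were called less firmly. IPMI2 (AT2G43100) had polysomal levels of 7.46, 8.30 and 6.64 in light control and 9.91, 9.86 and 7.92 in light sucrose. The groups overlapped because replicate 9 was low in both, although each replicate rose (by 2.45, 1.56 and 1.28). BAT5 (AT4G12030) rose by 2.13, 1.76 and 0.60 in the 3 replicates, and MYB29 (AT5G07690) was higher by 1.26, 0.81 and 0.48. IPMI2 and BAT5 passed in light (adjusted p = 0.0144 and 0.00987) and MYB29 did not (adjusted p = 0.0908). None of the 3 passed for the light-minus-dark difference.

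The glucosinolate list as a whole, members included, was then read by branch. The list was divided into branches after its values had been seen. Of 20 features of the methionine branch, 5 were members, which the rule had chosen for a light rise and a flat dark pair in total RNA. In polysomal RNA 7 of the 20 rose with sucrose in light. They were the members CYP83A1, IPMI1, IPMI2 and BAT5 and, outside the set, only the chain-lengthening genes MAM1, IMS2 and IMD1. In darkness 1 rose, the sulfotransferase gene SOT17. Of 10 features of the tryptophan branch, 0 rose in light and 1 fell (IGMT1), while 6 rose in darkness: MYB51, MYB122, CYP79B2, SOT16, IGMT2 and CYP81F2. Of all features 4.79% rose in light, 4.34% fell there and 5.48% rose in darkness. The 0 of 10 in light and the 1 of 20 in darkness were near these shares. The median polysomal change was 0.79 in light and 0.06 in darkness for the methionine branch, and -0.20 in light and 1.29 in darkness for the tryptophan branch. The counts and medians of the methionine branch include its 5 members, so the choice of members shaped part of them.

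Single genes of both branches varied in how far they followed these medians. MAM1, which makes the first step of chain lengthening, changed by 1.26 ± 0.62 in light and -0.40 ± 0.18 in darkness (SD, n = 3). MYB51, a transcription factor of the tryptophan branch, changed by 0.04 ± 0.22 in light and by 1.72 ± 0.59 in darkness, and CYP79B2, which acts on tryptophan, by 0.63 ± 0.08 and 2.01 ± 0.75. None of these 3 genes passed for the light-minus-dark difference (limma, adjusted p = 0.102, 0.0854 and 0.0618). In the tryptophan branch CYP79B3 changed by -0.34 in light and -0.45 in darkness, and MYB34 by -0.21 and -0.25. In the methionine branch SOT17 changed by 0.84 in light and 1.98 in darkness. Tested as a difference, 1 gene of the methionine branch (IPMI1) had a larger change in light and 4 of the tryptophan branch (MYB122, IGMT1, IGMT2 and CYP81F2) a larger one in darkness or a fall in light, as did UGT74B1, a glucosyltransferase shared by both. In that fit 6.33% of all features passed for a larger change in light and 5.21% for a larger one in darkness. The 1 of 20 in the methionine branch was near the first share. IPMI1 was itself a member, and no methionine feature outside the set passed. With the replicate number as a block, 7 features of the list had the larger change in light and 9 in darkness. The counts again moved with 1 culture. Over the whole list, 7 features rose in light and 9 in darkness; without replicate 7 these were 2 and 6, without replicate 8, 3 and 9, and without replicate 9, 10 and 8. No difference was called in either direction without replicate 7 or without replicate 8, and 9 were called in each direction without replicate 9.

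**Figure D3:**
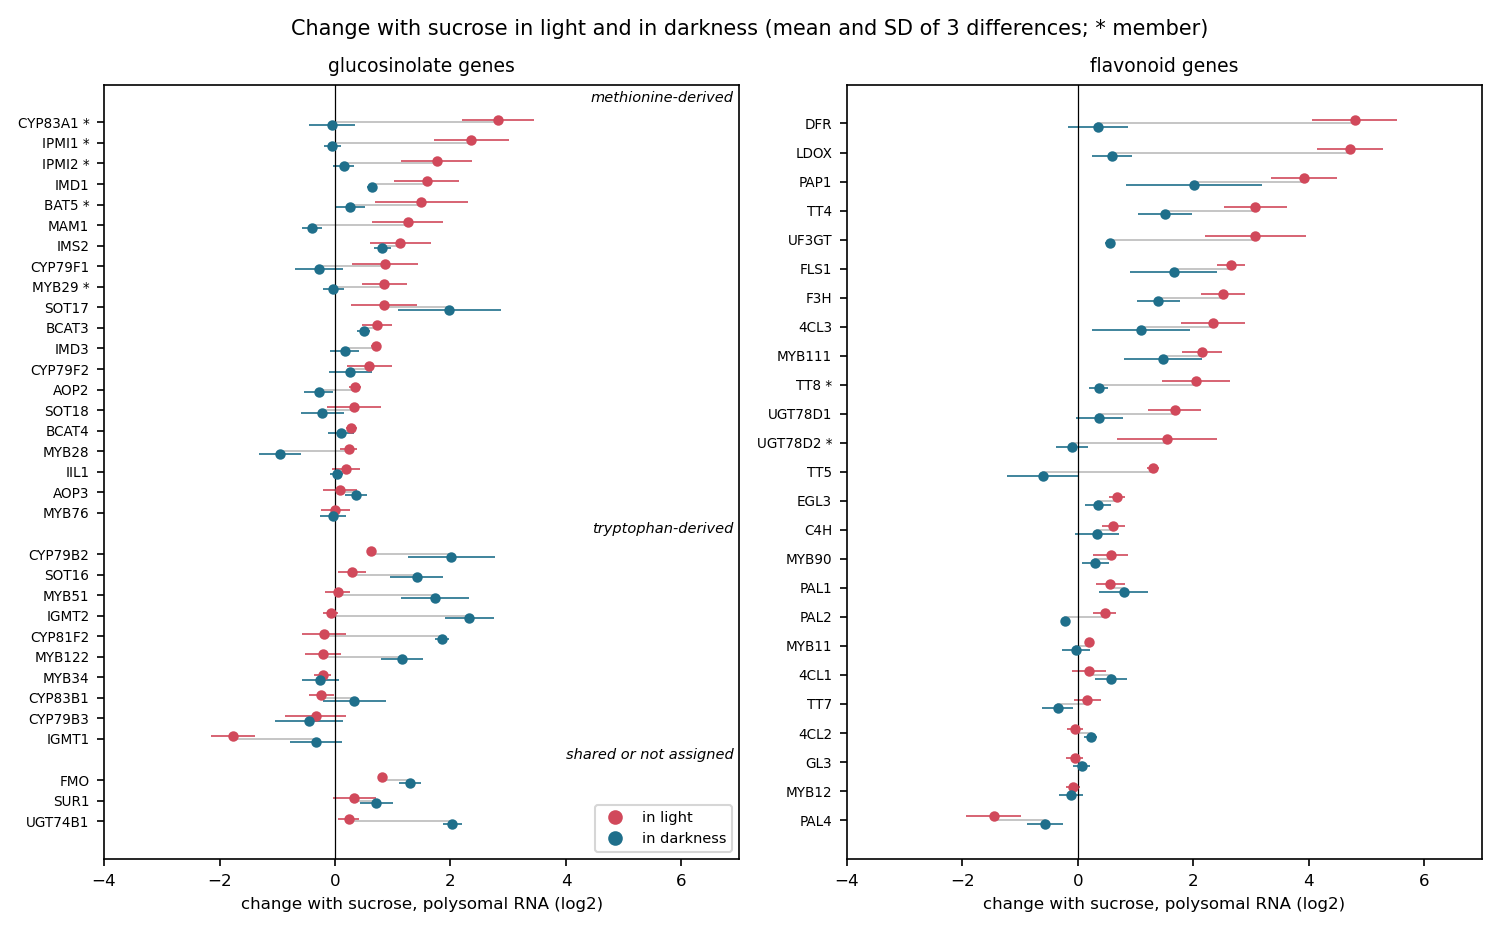
Change with sucrose in polysomal RNA (log2, mean and SD of the 3 same-numbered differences) in light (red) and in darkness (blue) for the 33 glucosinolate features, by branch, and for 25 flavonoid features; a star marks a member. Red lies to the right of blue for 18 of the 20 features of the methionine branch and for 2 of the 10 of the tryptophan branch, and for 20 of the 25 flavonoid features. These counts include the members, which were chosen for such a difference in total RNA. The share of all features was not counted.

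Flavonoid synthesis had a pair of members. Flavonoids include the anthocyanin pigments that plants make in bright light and when sugar is plentiful. TT8 (AT4G09820) encodes the basic helix-loop-helix protein of the complex that turns on late pigment genes, and UGT78D2 (AT5G17050) a glucosyltransferase that adds glucose to flavonols and anthocyanins. TT8 had polysomal levels of 4.81, 4.81 and 4.82 in light control and 6.82, 7.46 and 6.30 in light sucrose, against 4.64, 5.03 and 4.52 in dark control and 5.17, 5.37 and 4.74 in dark sucrose. It was highest in light sucrose without overlap, by 2.05 ± 0.59 over light control (SD, n = 3; 4.14-fold, adjusted p = 3.08e-05), and the light-minus-dark difference was 1.69 ± 0.56 (adjusted p = 0.0163). UGT78D2 went from 7.35, 7.48 and 7.49 to 9.04, 9.80 and 8.10 in light and from 7.42, 7.26 and 7.07 to 7.26, 7.47 and 6.74 in darkness. Its light rise was 1.54 ± 0.87 (2.91-fold, adjusted p = 0.000655), smallest in replicate 9, and the difference 1.63 ± 0.61 (adjusted p = 0.0208).

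Other genes of the flavonoid list rose with sucrose in light as well. The list held 32 features, of which 7 had been matched through a name with another meaning and were left out after the values were seen. Of the other 25, 13 rose with sucrose in light in polysomal RNA and 1 fell, and 3 rose in darkness (PAP1, FLS1 and MYB111), or 6 with the replicate number as a block. Without the block, 4.79% of all features rose in light, 4.34% fell there and 5.48% rose in darkness. The difference was larger in light for 6 (6.33% of all features): the members TT8 and UGT78D2, and TT5, LDOX, DFR and UF3GT. With the replicate number as a block it was larger for 10. DFR and LDOX, late enzymes of anthocyanin synthesis, changed by 4.79 ± 0.73 and 4.71 ± 0.57 in light and by 0.35 ± 0.52 and 0.60 ± 0.34 in darkness. They were not members because their total RNA was higher with sucrose in darkness by 0.81 and 0.44. Without replicate 7, 9 features rose in light and 0 passed for the difference; without replicate 8, 11 and 3 did.

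TTG2 and CPL3, which act in patterning the epidermis, were members as well (both named after their values were seen). TTG2, a WRKY factor of trichomes and seed coat pigment, rose by 1.44 ± 0.65 in light in polysomal RNA (adjusted p = 0.000481). CPL3, a small MYB repressor of trichomes, rose by 1.57 ± 0.58 (adjusted p = 0.000113).

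XTH9 (AT4G03210), an enzyme that cuts and rejoins xyloglucan chains, was the only member among 60 expansin and xyloglucan hydrolase features. Its polysomal levels were 6.24, 6.60 and 5.73 in light control, 7.70, 7.77 and 7.14 in light sucrose, 5.98, 6.18 and 5.79 in dark control and 5.76, 5.96 and 5.60 in dark sucrose. The rise of 1.34 ± 0.15 in light (2.53-fold, adjusted p = 0.000207) was the same in the 3 replicates to within a small spread, and the difference of 1.55 ± 0.14 passed (adjusted p = 0.00588). Outside any list, and named after their values were seen, GUS3, of a glucuronidase family, rose by 1.42 ± 0.12 (adjusted p = 5.9e-07), and GATL6, of a family of galacturonosyltransferase-like proteins, by 1.77 ± 0.31 (adjusted p = 6.19e-07). GUS3 was called for the light-minus-dark difference without replicate 7 and without replicate 8 alike. In the expansin and xyloglucan hydrolase list as a whole, 7 of 60 features rose and 3 fell with sucrose in light in polysomal RNA (4.79% and 4.34% of all features). In darkness 5 rose and 6 fell (5.48% and 5.47%).

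Several members of other roles had high levels. DHAR1 (AT1G19570) encodes an enzyme that regenerates ascorbate. Its polysomal levels were 10.47, 10.40 and 10.66 in light control and 11.74, 12.02 and 11.57 in light sucrose, a rise of 1.27 ± 0.36 (adjusted p = 7.43e-07) with no overlap. In darkness it went from 10.68, 10.79 and 10.75 to 11.05, 11.10 and 10.69, and the difference was 1.07 ± 0.22 (adjusted p = 0.00152). PLAT2 (AT2G22170), a stress-related protein with a lipid-binding type of domain, went from 9.66, 9.67 and 10.15 to 11.02, 11.25 and 11.30 in light and from 9.89, 9.88 and 9.64 to 9.93, 9.98 and 9.64 in darkness. The dark pair was level in each replicate, and the difference of 1.32 ± 0.16 (adjusted p = 0.000162) was called without replicate 7 too. NRT1.1 (AT1G12110), the nitrate transporter that also senses nitrate, was the only member among 32 features of nitrogen uptake and assimilation; it rose by 1.22 ± 0.15 in light (adjusted p = 0.00667), and its difference of 1.43 ± 0.45 missed the threshold (adjusted p = 0.0524).

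A further 4 loci with large changes have no symbol in the reference table. AT1G28660 had the largest light rise of all members in total RNA (2.70). Its polysomal levels were 7.00, 6.52 and 7.67 in light control, 9.46, 9.50 and 10.05 in light sucrose, 7.32, 7.42 and 8.19 in dark control and 8.11, 8.06 and 7.58 in dark sucrose. With sucrose in darkness, replicates 7 and 8 were higher and replicate 9 was lower. The polysomal rise in light was 2.61 ± 0.33 (6.12-fold, adjusted p = 1.58e-06) and the difference 2.34 ± 0.66 (adjusted p = 0.00151). AT2G02680 rose by 1.94 ± 0.92 (adjusted p = 0.000685), most in replicate 9, which reached 9.79 against 7.98 and 7.87. AT1G72416 rose by 1.88 ± 0.50 (adjusted p = 1.44e-05). AT1G72430, known also as SAUR78 and so of the small auxin-induced family, rose by 1.33 ± 0.48 (adjusted p = 0.0012). AT1G72416 and AT1G72430 are neighbours on chromosome 1, with 1 coding gene between them, and IPMI2 and the Rab GTPase gene ARA4 lie near each other on chromosome 2 with 2 coding genes between them. Chromosome 1 carried 25 of the 71 members (35.2%, against 25.3% of all features).

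Not every named member was even across cultures. AT5G10760 (AED1, an aspartic protease of the apoplast) had polysomal levels of 6.41, 5.74 and 6.53 in light control and 7.92, 8.16 and 6.25 in light sucrose. Replicates 7 and 8 rose by 1.51 and 2.42, and replicate 9 fell by 0.27. The mean of 1.22 ± 1.37 passed (adjusted p = 0.0241), with an SD larger than the change. ASG8 rose by 1.63 ± 0.20 in light (adjusted p = 0.0014) and in darkness changed by 0.00 ± 0.70.

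**Figure D4:**
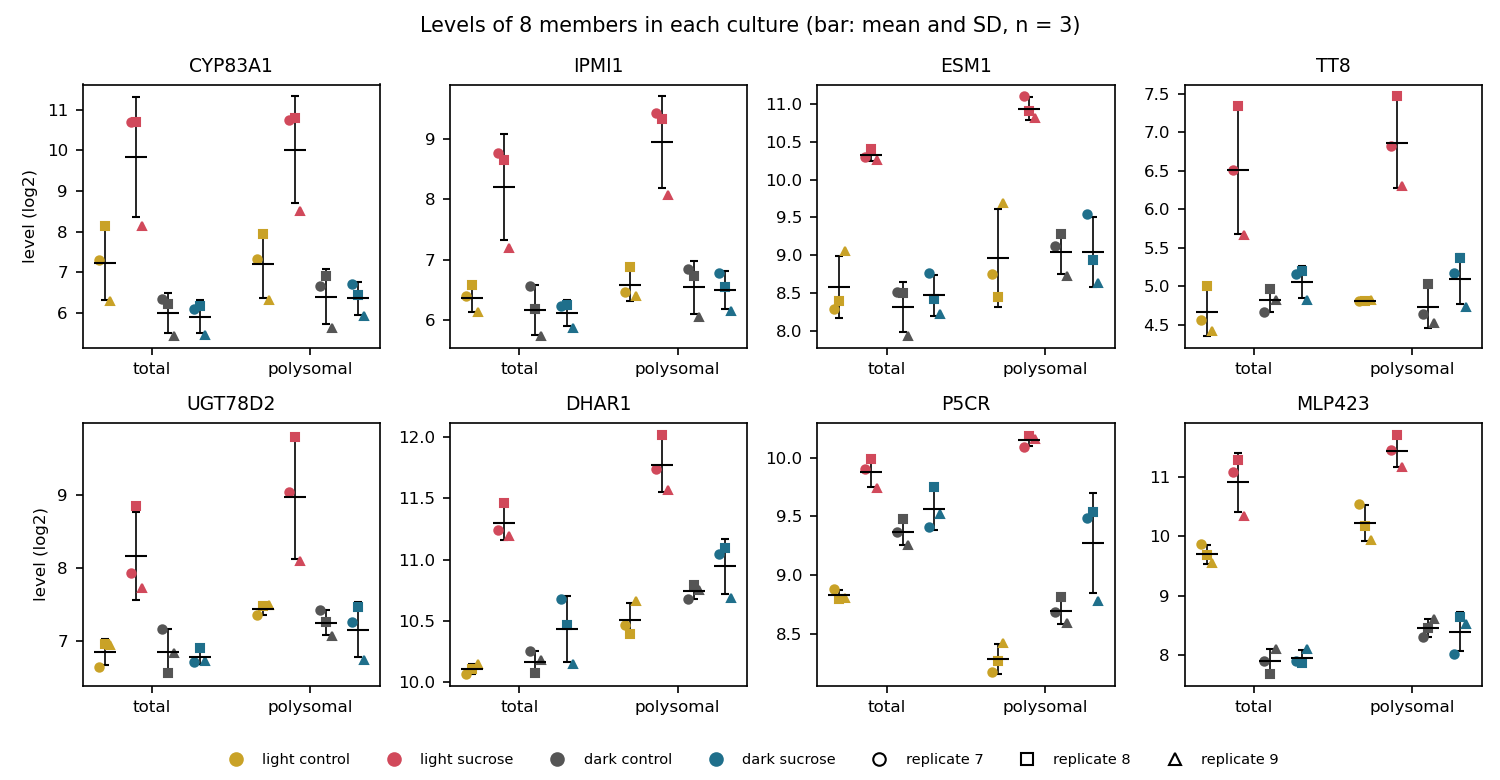
Level (log2) of 8 members in each culture, in total RNA on the left of each panel and polysomal RNA on the right. Colours mark the 4 treatments, symbols the replicate numbers, and bars the mean and SD (n = 3). Light sucrose is the highest group in all 8; MLP423 has both dark groups below light control, and P5CR has the dark groups between light control and light sucrose.

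Ribosomal protein genes gave 3 members, of 234 features for cytosolic ribosomal proteins. AT2G37190 (RPL12A) had polysomal levels of 8.68, 8.62 and 8.83 in light control and 10.02, 10.17 and 10.10 in light sucrose, a rise of 1.39 ± 0.15 (adjusted p = 1.77e-06). In darkness it went from 8.65, 8.85 and 8.59 to 9.36, 9.54 and 8.94, a change of 0.58 (adjusted p = 0.00923), and AT2G39390 (RPL35B) changed there by 0.71 (adjusted p = 0.00225). In total RNA the dark changes in replicates 7, 8 and 9 were 0.25, 0.22 and 0.33 for AT2G37190 and 0.11, 0.15 and 0.19 for AT2G39390. Both genes were thus higher with sucrose in darkness also in total RNA, with means inside the rule's limit of 0.3. Their mean dark changes were larger in polysomal RNA, a difference that was not tested. AT1G41880 (RPL35aB) changed by 0.80 ± 0.74 in light (adjusted p = 0.0615). Of the whole family 132 features rose in polysomal RNA with sucrose in light and 4 in darkness (4.79% and 5.48% of all features). The median changes of the family were 1.07 and 0.46 in polysomal RNA, and 0.76 and 0.38 in total RNA.

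The 10 members with an adjusted p under 0.05 in darkness in polysomal RNA included NAC004 (0.84), AT5G66800 (0.73) and P5CR (0.57) besides these ribosomal protein genes. NAC004, a NAC transcription factor, had polysomal levels of 5.13, 5.14 and 5.84 in dark control and 6.24, 6.13 and 6.24 in dark sucrose, with no overlap (adjusted p = 0.00422). Its change in light was larger, 1.46 ± 0.68, and the difference of 0.63 was not called (adjusted p = 0.205).

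The rule says nothing of where the dark pair lies, and this was read from the position of dark control between light control (0) and light sucrose (1) in total RNA. For 67 members the dark control was below 0.333, for 4 it lay between 0.333 and 0.667, and for 0 above. The dark control was lower than light control in 43 members in total RNA and in 46 in polysomal RNA, with the same sign in both for 58. The share of all features with these signs was not counted. The median of dark control minus light control was -0.09 in total and -0.08 in polysomal RNA for the members. For all features it was 0.04 and -0.01. Light sucrose had the highest mean of the 4 treatments in all 71 members in total RNA and in 69 in polysomal RNA. The rule had set it at least 1 log2 unit above light control in total RNA, which favoured this place. A share of all features was not counted for this either.

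At the low end stood genes with less RNA in darkness than in light also without sucrose. This comparison shares the light control arrays with the light response and the dark control arrays with the dark response. MLP423 (AT1G24020), of the major latex protein family, had polysomal levels of 10.55, 10.18 and 9.95 in light control, 11.45, 11.72 and 11.18 in light sucrose, 8.31, 8.46 and 8.60 in dark control and 8.02, 8.65 and 8.52 in dark sucrose. The 3 levels were separate, with both dark groups together at the bottom. Its change in darkness without sucrose was -1.77 ± 0.45 (adjusted p = 4.09e-05), and sucrose in light raised it by 1.23 ± 0.32 (adjusted p = 0.000154). DFL2 (AT4G03400), an enzyme of the GH3 family, had polysomal levels of 7.70, 7.77 and 7.50 in light control, 8.58 to 9.30 in light sucrose, 6.56, 6.87 and 6.09 in dark control and 6.84, 7.15 and 6.02 in dark sucrose. It fell by 1.15 ± 0.26 in darkness without sucrose (adjusted p = 0.0185), with no overlap. MLP423 and DFL2 were the 2 members lowered by darkness without sucrose in polysomal RNA (0.951% of all features), and 0 members were raised (0.425%). The count of members lowered was 1 without replicate 7 and 1 without replicate 8. Without the fold limit 3 members had an adjusted p under 0.05 with limma, and 11 had an unadjusted p under 0.05. The share of all features was not counted at these looser limits. RALFL34, a secreted signalling peptide, and CYP83A1 were lower in dark control by over 2-fold in total RNA (changes of -1.02 and -1.24), and their polysomal changes of -0.72 and -0.80 were not called.

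At the high end were ZF3, a zinc finger protein, COR413IM1, a cold-regulated protein of the inner chloroplast envelope, P5CR, the last enzyme of proline synthesis, and NRT1.1, at positions of 0.595, 0.572, 0.516 and 0.449. P5CR (AT5G14800) had polysomal levels of 8.17, 8.27 and 8.42 in light control, 10.09, 10.19 and 10.16 in light sucrose, 8.69, 8.82 and 8.59 in dark control and 9.49, 9.54 and 8.78 in dark sucrose. Its arrays fell into the order light control, dark control, dark sucrose, light sucrose, and only the dark groups overlapped. The rise in light of 1.86 ± 0.10 had the lowest adjusted p of all members (3.64-fold, adjusted p = 1.95e-08), and the difference was 1.29 ± 0.23 (adjusted p = 0.000554). None of the 4 was called for darkness without sucrose in polysomal RNA, where their changes were 0.41 to 0.85.

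With sucrose present, darkness lowered 42 of 71 members in polysomal RNA (3.45% of all features) and raised 0 (5.02%). The median change was -1.24, against -0.04 for all features. This comparison shares the light sucrose arrays with the light response. CYP83A1 changed by -3.66 ± 0.95 (adjusted p = 0.000283), MLP423 by -3.06 ± 0.39 (adjusted p = 4.85e-09), IPMI1 by -2.44 ± 0.47 (adjusted p = 4.34e-05) and DFL2 by -2.29 ± 0.24 (adjusted p = 1.09e-05). In each of these 4, no light sucrose array overlapped with dark sucrose.

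The small RNA genes behaved apart from the protein-coding members. snoRNAs guide the chemical modification of other RNAs in the nucleus, and miR157 silences transcription factors of the SPL family. In total RNA the light rise of the 5 (AT5G58595, AT1G19376, AT1G03746, AT1G32385 and MIR157c) had a median of 1.26, against 1.17 for the 66 protein-coding members. In polysomal RNA it was 0.21, and 0 of 5 were called, against 1.30 and 54 of 66. AT5G58595 had total RNA levels of 5.37, 3.60 and 4.29 in light control and 6.62, 7.61 and 5.28 in light sucrose, an overlap in 1 culture, and 3.74, 6.62 and 4.42 in dark control, where replicate 8 stood more than 2 log2 units above the others. Its polysomal levels were 3.90, 3.49 and 3.94 in light control and 3.74, 4.35 and 3.28 in light sucrose. MIR157c had total RNA levels of 7.29, 5.77 and 7.23 in light control and 7.82, 7.81 and 7.95 in light sucrose, and polysomal levels of 3.71 to 5.63 and of 4.19 to 5.73, which overlapped.

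The polysomal levels of the 5 were low: the median over 12 arrays was 4.11 (1.17 to 5.73), where the first quartile of all features was 4.05 to 4.25 and the array medians were 5.93 to 6.06. In total RNA their median was 6.18. AT1G19376 had an adjusted p of 0.0199 in polysomal RNA with a change of 0.70. Of the 12 protein-coding members not called in light, 9 had an adjusted p under 0.05 and missed the fold limit, among them NFD5 (0.69) and AT2G12462 (0.92), and 3 did not (MYB29, AT1G41880 and AT2G41950).

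Polysomal minus total level, the polysomal occupancy, is given as a description, because total RNA enters both it and the rule. The median occupancy of the members was 0.17 in light control, 0.31 in light sucrose, 0.15 in dark control and 0.30 in dark sucrose, where all features had medians of -0.01, 0.00, -0.03 and -0.01. It was above 0 in 47, 53, 44 and 53 members in light control, light sucrose, dark control and dark sucrose. The share of all features above 0 was not counted. The small RNA genes were far below, at -0.64 or less in light control and -2.64 or less in light sucrose.

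**Figure D5:**
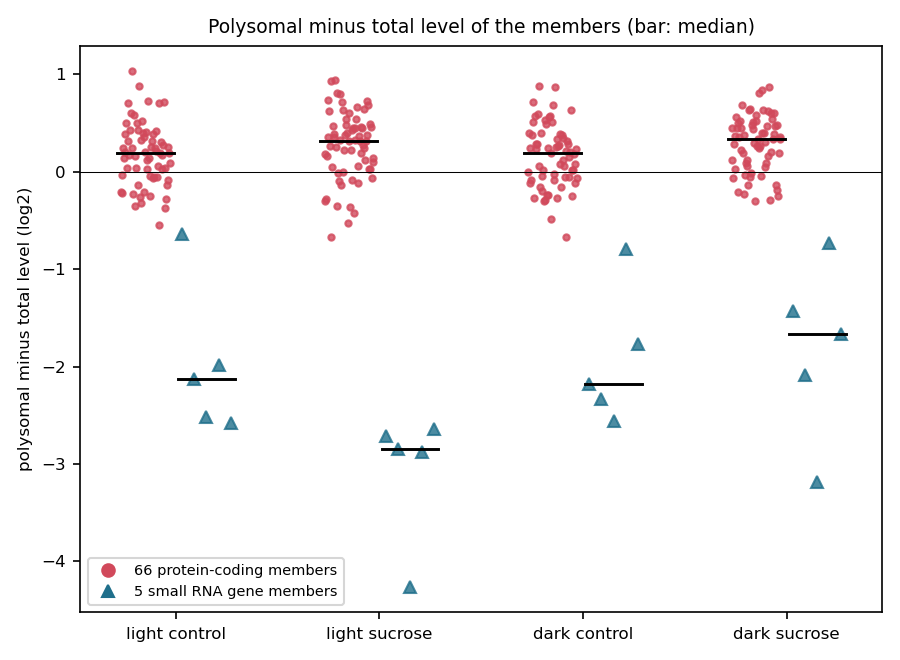
Polysomal minus total level (log2, difference of the means of 3 arrays) of each member in the 4 treatments; bars are medians. The 66 protein-coding members centre slightly above 0, and the 5 small RNA genes lie below -0.6 in every treatment, lowest in light sucrose at -4.26.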

How the data were processed

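Total RNA and RNA from small polysomes of 12 cultures were measured on AGRONOMICS1 tiling arrays. The authors deposited log2 values per gene, summarised and normalized together by RMA, which gives relative levels, so a change of all mRNA would not show. The columns ranged from 0.83 to 14.5, with medians of 5.92 to 6.06. Read depth does not apply, and 3 arrays per group limit the precision.

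The members, gene lists and tests were chosen with earlier results of these data known. One limma fit (3.58.1, R 4.3.3) over 24 arrays and 30386 features gave each group its mean, without a block, and p-values were Benjamini-Hochberg adjusted over all features. Features were called past a 2-fold change where the adjusted p was also under 0.05; the light-minus-dark difference had no fold limit. A ± is the SD of the 3 same-numbered differences, and fold changes are powers of 2 of the log2 change. The limma p-values came from the fit without a block and do not measure that SD. The procedure was tested on simulated data with independent noise in each array, so the dependence between arrays of these cultures was not covered.

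Named genes were members with the largest total rises (10), polysomal differences (10), levels (5) and list ranks (up to 4 per list), those with the smallest polysomal light (5) and largest dark changes (5), extreme dark control positions, members at the limits, and those called in the darkness comparisons. ENODL8, TTG2, CPL3, GUS3, GATL6, ARA4, NFD5, AT2G12462, AT2G41950 and list genes that are not members were named after their values were seen where this rule does not name them.

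Same-numbered cultures deviated together in polysomal RNA between light control and light sucrose (r across genes, 0.121 to 0.387) and between dark control and dark sucrose (0.109 to 0.335). The same held between both controls (0.137 to 0.366), both sucrose groups (0.100 to 0.226), and light sucrose and dark control (0.086 to 0.392). It did not hold between light control and dark sucrose (-0.01 to 0.05). The replicate number was a block only in an alternative fit. Names came from a RefSeq gene table that held 29707 of 30269 loci, with gene lists matched through symbols and synonyms. Alternatives covered the arrays in the fit, variance model, low-value filter, normalization, scaling, blocks, fold limit, rule limits and each replicate left out.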

Additional observations from a re-analysis of the deposited data

Results flagged for a closer look

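The sucrose change in polysomal RNA differed between light and darkness for 34 of 71 members, all with the larger change in light (limma interaction term, adjusted p under 0.05). Groups held 3 arrays, too few for a check of single arrays that stand apart. Without replicates 7, 8 and 9 in turn, 3, 4 and 51 members passed, while the members' median difference was 1.12, 0.99 and 1.12, against 1.08 with all 3. The cause was not tested.

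Among the named members the difference was 2.41 for IPMI1, 2.34 for AT1G28660, 1.97 for ESM1, 1.87 for AT1G72416 and 1.80 for AT2G02680. It was 1.77 for AT5G10760, 1.69 for TT8, 1.63 for UGT78D2, 1.63 for ASG8, 1.55 for XTH9 and 1.48 for AT1G72430. It was 1.33 for COR413IM1, 1.32 for PLAT2, 1.29 for MLP423, 1.29 for P5CR, 1.29 for RALFL34, 1.07 for DHAR1, 0.80 for AT2G37190 and 0.76 for AT1G48460.

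Among genes of the glucosinolate list that were not members, the difference was -2.40 for IGMT2, -2.05 for CYP81F2, -1.80 for UGT74B1, -1.43 for IGMT1 and -1.37 for MYB122, where a negative value is a lower change in light than in darkness. In the flavonoid list it was 4.44 for DFR, 4.12 for LDOX, 2.52 for UF3GT, 1.92 for TT5 and -0.89 for PAL4.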

How the results depend on the processing

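Leaving out each replicate gave 44 to 56 members raised in light, 0 to 2 raised in darkness, 3 to 51 with a larger change in light, 1 to 2 lowered by darkness without sucrose and 38 to 39 with it, all in polysomal RNA. The rule itself then found 78 to 115 members. In the glucosinolate list 2 to 10 features rose in light, 6 to 9 in darkness, 0 to 9 had the larger change in light and 0 to 9 in darkness; in the flavonoid list the first 3 of these were 9 to 13, 0 to 7 and 0 to 9. With a light rise of at least 1.5 the rule found 11 members, of which 9 rose in light, 7 had the larger change in light, 0 were lowered by darkness without sucrose and 10 with it. A dark limit of 0.5 gave 172 members, and one of 0.2 left 22 with the larger change in light. A fold limit of 1.5 gave 3 members raised in darkness.

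With the replicate number as a block, 54 members rose in light and 51 had the larger change in light; in the glucosinolate list 7 features had the larger change in light and 9 in darkness, and in the flavonoid list 6 rose in darkness and 10 had the larger change in light. With culture as a random block the glucosinolate list had 4 and 8. With a mean level of at least 6 it had 3 with the larger change in light, and the flavonoid list had 8 raised in light; this setting tests fewer features. The block moved no other of these counts by over 1.5 times. The causes were not tested.

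Among single-gene values, 659 kept direction and side of the threshold, 71 fell below it, 31 passed it and 11 changed sign. The light change of AT5G58595 was -0.030 with centred arrays and -0.41 to 0.35 without single replicates, and its light-minus-dark difference was -1.02 to 0.66. For AT1G03746 without single replicates the light change was -1.09 to 0.18 and the difference -1.10 to 0.85, and for MIR157c -0.36 to 1.03 and -0.45 to 1.403. The difference was -0.55 to 0.82 for AT1G41880 and -0.16 to 0.86 for AT5G66800. All 11 values that changed sign were below the threshold.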
